A study of Mus musculus with 12 samples.

Results

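The subject is a group of 10 genes of the islet endothelium, the cells that line the vessels of the pancreatic islet, and of the adhesion molecules with which endothelium holds circulating leukocytes. The vascular genes are Pecam1, Cdh5, Kdr, Flt1, Plvap, Tek and Eng, and the adhesion genes are Icam1, Vcam1 and Madcam1. They were chosen by name, and not by a measured value, as the rows of the authors' deposited comparison table that carry these 10 gene symbols. All 10 were found among the 13703 rows of that table, and 9 passed the filter on low counts that left 13115 genes for testing; Madcam1 did not. The samples were pancreatic islets of female NOD/ShiLtJ mice, a wild-type inbred strain that develops autoimmune diabetes spontaneously. The mice were euglycemic and 9 weeks old at the start. One group received an antibody against CD3, a part of the T cell receptor complex, at 2.5 mg/kg, and the other received a control IgG. Both were dosed weekly for 4 weeks, and islets were isolated with collagenase 2 to 3 days after the last dose. Each group had 6 libraries of poly(A)-selected RNA, numbered 1 to 6 here as in the labels. The labels do not say whether a library came from 1 mouse or from several, so p-values measure only the spread between these libraries, which may be partly technical.

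Islets are threaded by a dense bed of fenestrated capillaries, which VEGF-A made by the endocrine cells maintains through its receptor on endothelium. In insulitis, the lymphocytic infiltration of islets that precedes diabetes in NOD mice, leukocytes leave the blood by rolling on selectins and addressins and then binding by integrins to ICAM-1, VCAM-1 and MAdCAM-1. Inflammatory cytokines and lymphotoxin raise the expression of these adhesion molecules through NF-kB. The comparison of anti-CD3 with IgG islets asks how far the RNA of endothelial and adhesion genes differs after a treatment aimed at T cells.

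Total counts per library ran from 10994337 to 19284740 in anti-CD3 and from 11891132 to 17628347 in IgG. Endocrine RNA was present in all libraries, with a mean of 14 endocrine genes between 7.33 and 8.14 log2 CPM in anti-CD3 and between 7.48 and 8.10 in IgG. Ins2, an insulin gene, averaged 133330 ± 33416 normalized counts in anti-CD3 and 111016 ± 27040 in IgG (SD, n = 6 each). A list of 25 acinar genes, products of the exocrine pancreas, took 57.9% to 64.0% of the counts in 10 libraries, but 48.2% in IgG 5 and 28.5% in IgG 6. Among the acinar genes, the carboxypeptidase Cpa1 averaged 496339 ± 76943 normalized counts in anti-CD3 and 368028 ± 174478 in IgG. IgG 6 also had the highest leukocyte level, the mean log2 CPM of 14 leukocyte genes, at 5.10, against a range of 0.13 to 3.41 in anti-CD3 and a median of 2.86 in IgG. IgG 6 stands apart from the other libraries for these reasons, and the fold changes of the 10 genes are also given without it. In bulk RNA, fewer cells of a type and less RNA per cell cannot be told apart. All values called normalized counts are those of the authors' deposited table, which are counts divided by 1 size factor per library.

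Endothelial RNA was present in every library. All the genes except Madcam1 had counts in each of the 12 libraries, and so did all 28 genes of a wider list of endothelial genes. On a scale that corrects for gene length (TPM over all annotated exons), Plvap, which encodes the protein of the diaphragms that span endothelial fenestrae and caveolae, was the highest of the 10 genes in all 12 libraries. Its median was 16.1 TPM in anti-CD3 and 28.7 TPM in IgG. Cdh5, which encodes the VE-cadherin of endothelial junctions, had medians of 8.41 and 11.9 TPM in anti-CD3 and IgG. Pecam1, an adhesion molecule of endothelial junctions that platelets and leukocytes also carry, had 7.19 and 10.03 TPM. The medians of Icam1 were 6.58 TPM in anti-CD3 and 14.6 TPM in IgG, and those of Eng, a co-receptor for BMP9 on endothelium, were 6.57 and 13.4 TPM. Vcam1 followed with medians of 4.05 TPM in anti-CD3 and 5.97 TPM in IgG. The VEGF receptors were lower per length, with medians of 2.53 and 4.85 TPM for Kdr in anti-CD3 and IgG, and 2.56 and 3.93 TPM for Flt1. Tek, the receptor of angiopoietins, had medians of 0.596 and 0.838 TPM, and Madcam1 of 0.0706 and 0.595 TPM. Madcam1 was the lowest of the 10 in 9 libraries. Ranges of neighbours in the order of medians overlapped within each group, except that in anti-CD3 the lowest Kdr value, 1.44 TPM, lay above the highest Tek value, 0.987 TPM. Part of the order depends on the length used, since the annotated exons of Flt1 add up to 13504 bases while its longest transcript has 6895. The same holds for Vcam1 (8870 and 4088 bases), Pecam1 (6228 and 3441), Icam1 (4360 and 2535) and Kdr (9030 and 5924), whose TPM are therefore understated relative to genes such as Plvap, with 1987 bases by either count. The first place of Plvap over Icam1 in all 12 libraries therefore also depends on the length used. TPM also falls as the acinar share of a library rises, so groups are compared below on normalized counts and by the test.

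None of the 9 tested genes passed edgeR's quasi-likelihood test at an adjusted p of 0.05, a test that called 0.0762% of all genes (10 of 13115, each higher in anti-CD3). With a library left out that test called 0 to 203 genes, the most without anti-CD3 2, and still none of the 9. DESeq2 also called none of them, while it called 3.78% of the genes to which it gave an adjusted p, and neither did the authors' deposited table, which called 4.55%. At an unadjusted p under 0.05, 18.4% of all genes passed, 8.68% lower and 9.68% higher in anti-CD3; of the 9 genes only Kdr did, and it was lower. All 10 means were lower in anti-CD3 than in IgG, but 5 of the 10 were lower when IgG 6 was left out. Of all genes tested, 55.2% had a negative edgeR fold change with all libraries, and the share without IgG 6 was not counted. For none of the 10 were the groups separated; they did not overlap for 1.72% of the rows of the deposited table, 0.635% with anti-CD3 lower.

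**Figure D1:**
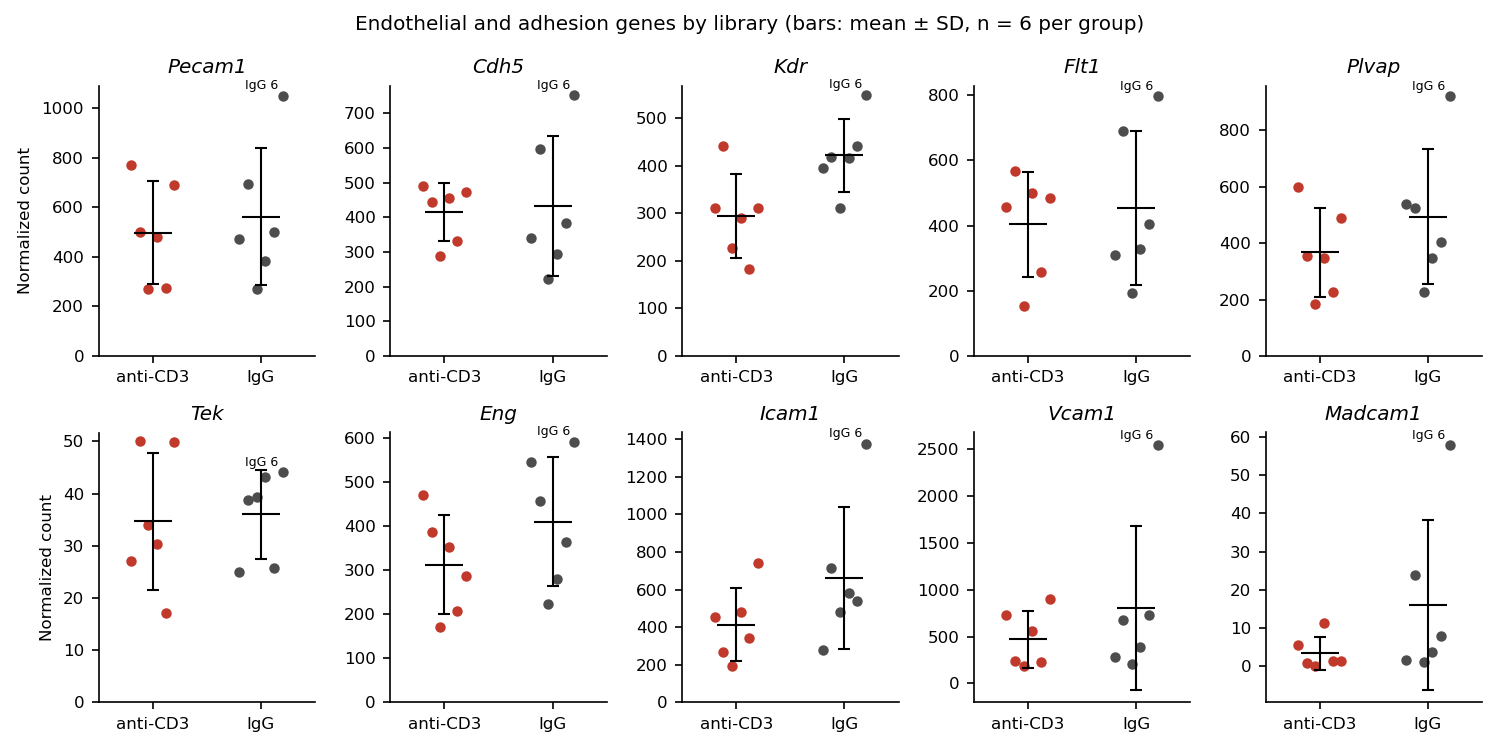
Normalized counts (vertical axis, linear) of the 10 genes in each library of anti-CD3 (red, left) and IgG (grey, right); points are libraries and bars are mean ± SD over 6 libraries. The groups overlap in every panel, and IgG 6 is the highest IgG library in all 10 panels.

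Kdr encodes VEGFR2, the main signalling receptor of VEGF-A on endothelium. Its normalized count was 183 at the lowest, 300 at the median and 442 at the highest in anti-CD3 libraries, against 311, 418 and 550 in IgG libraries. In 3 of the 6 anti-CD3 libraries it lay below every IgG library, and 5 of 6 were below the IgG mean, while anti-CD3 2 exceeded the IgG median. The fitted log2 fold change was -0.51 ± 0.19 (SE, edgeR, n = 6 each, unadjusted p = 0.0183, adjusted p = 0.190). Without IgG 6 it was -0.43 ± 0.19 (edgeR adjusted p = 0.293). With each library left out in turn the log2 fold change ranged from -0.67 to -0.40. The gene lies at chr5:75932827-75978458 on the minus strand (GRCm38, GENCODE M21).

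Flt1 encodes VEGFR1, a high-affinity receptor that limits the VEGF-A available to VEGFR2. Its normalized count ran from 153 over a median of 471 to 567 in anti-CD3, and from 192 over a median of 366 to 796 in IgG. The median was thus higher in anti-CD3 while the mean was lower, and the groups overlapped widely. The log2 fold change was -0.17 ± 0.37 with all libraries and 0.06 ± 0.37 without IgG 6. Tek, with only 480 raw counts in the series, had 17.0, 32.1 and 50.1 normalized counts as lowest, median and highest in anti-CD3, and 25.0, 39.1 and 44.1 in IgG. Its log2 fold change was -0.04 ± 0.28, and 0.03 ± 0.30 without IgG 6. Tek was the only one of the 10 whose highest library of the 12 was not IgG 6; anti-CD3 2 was higher.

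The junctional genes differed by less than the spread between libraries. Pecam1 had 269, 490 and 771 normalized counts as lowest, median and highest in anti-CD3, and 271, 486 and 1050 in IgG. Cdh5 had 289, 451 and 491 in anti-CD3, and 223, 361 and 753 in IgG. The lowest libraries of the groups were nearly level for Pecam1, and the IgG range of Cdh5 spanned that of anti-CD3. The log2 fold changes were -0.18 ± 0.33 for Pecam1 and -0.06 ± 0.26 for Cdh5. Both were positive without IgG 6, at 0.09 ± 0.30 and 0.17 ± 0.22.

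Plvap had 183, 352 and 599 normalized counts as lowest, median and highest in anti-CD3, and 227, 464 and 920 in IgG. Eng had 172, 319 and 471 in anti-CD3, and 223, 411 and 592 in IgG. For each of these genes 5 of 6 anti-CD3 libraries were below the IgG mean and 2 were below every IgG library. The log2 fold changes were -0.43 ± 0.33 for Plvap (edgeR adjusted p = 0.498) and -0.39 ± 0.28 for Eng (edgeR adjusted p = 0.453). Without IgG 6 they were -0.16 ± 0.30 and -0.26 ± 0.27. Over the 7 vascular genes the median log2 fold change was -0.18, beside -0.05 over all genes tested. It was 0.03 without IgG 6, beside -0.03 over all genes.

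**Figure D2:**
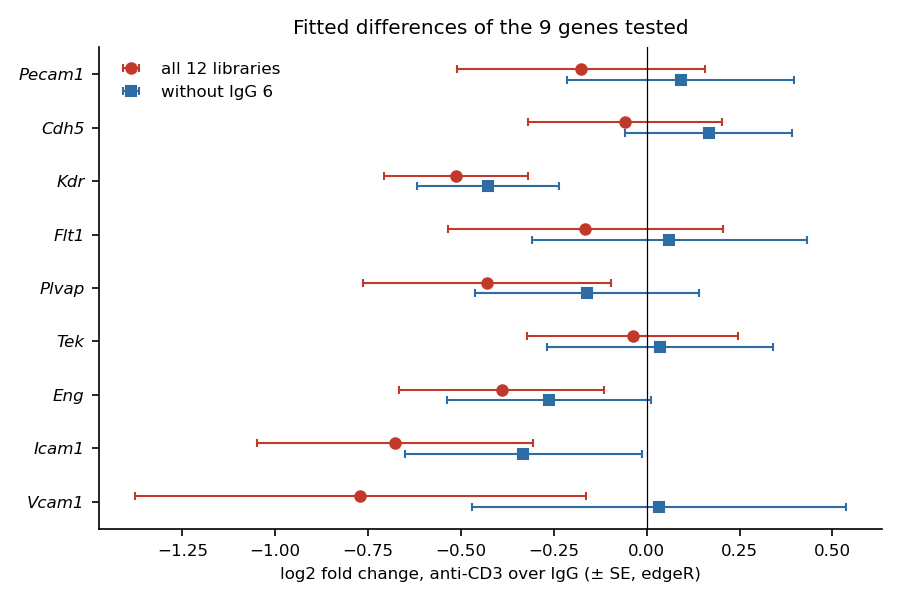
Fitted log2 fold change, anti-CD3 over IgG (horizontal axis, edgeR, bars ± SE), of the 9 genes tested, fitted with all 12 libraries (red circles) and without IgG 6 (blue squares). Pecam1, Cdh5, Flt1, Tek and Vcam1 cross 0 when IgG 6 is left out, while Kdr stays between -0.51 and -0.43.

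With all libraries the adhesion genes had the lowest fold changes of the 10, an order that did not hold without IgG 6, where Kdr was the lowest of the 9 tested. Icam1 encodes the ligand of the integrins LFA-1 and Mac-1. Its normalized count was 195 at the lowest, 399 at the median and 742 at the highest in anti-CD3, against 281, 560 and 1376 in IgG. In 5 of 6 anti-CD3 libraries it was below the IgG mean, and in 2 below every IgG library; anti-CD3 6 exceeded every IgG library but IgG 6. The log2 fold change was -0.68 ± 0.37 (edgeR unadjusted p = 0.0906, adjusted p = 0.344), and -0.33 ± 0.32 without IgG 6.

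Vcam1 encodes the ligand of the integrin VLA-4 and is made by endothelium and by stromal cells. It had 183, 396 and 903 normalized counts as lowest, median and highest in anti-CD3, and 212, 535 and 2550 in IgG. IgG 6 alone held 52.6% of the summed IgG signal and was 2.82 times the next highest of the 12 libraries, anti-CD3 6. The log2 fold change was -0.77 ± 0.61 (edgeR adjusted p = 0.504) with all libraries and 0.03 ± 0.50 without IgG 6. The mean was 474 ± 304 in anti-CD3 (SD, n = 6) and 459 ± 235 in IgG without IgG 6 (SD, n = 5). The gene lies at chr3:116109949-116129688 on the minus strand.

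Madcam1 encodes the mucosal addressin, the ligand of the integrin alpha4beta7, and was close to the limit of detection. There were 19 raw counts over the 6 anti-CD3 libraries and 189 over the 6 IgG libraries, of which 146 came from IgG 6. Its normalized count was 0 at the lowest, 1.38 at the median and 11.2 at the highest in anti-CD3, against 1.13, 5.70 and 58.0 in IgG. All 6 anti-CD3 libraries were below the IgG mean of 16.0, and the ratio of means was 0.211, or 0.446 without IgG 6. The authors' deposited table gives a log2 fold change of -2.24 for Madcam1, with an unadjusted p of 0.0235 and no adjusted p. Fitted without the filter on low counts, the log2 fold change was -2.19 ± 1.08 (edgeR adjusted p = 0.402). Only 1 to 3 raw counts lay behind 4 of the anti-CD3 values, and anti-CD3 3 had 0.

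The promoters of Icam1 and Madcam1 are shown because both genes are textbook targets of NF-kB and because genes of that pathway are described below. They are the 250 bases before the RefSeq start site (GRCm38.p6), read 5′ to 3′, with the matches to 2 NF-kB type motifs in capitals, GGAAATTCC and GGGAAA followed after any 2 bases by CC. The Icam1 window is chr9:21015690-21015939 on the plus strand and the Madcam1 window is chr10:79664309-79664558 on the plus strand.
Icam1: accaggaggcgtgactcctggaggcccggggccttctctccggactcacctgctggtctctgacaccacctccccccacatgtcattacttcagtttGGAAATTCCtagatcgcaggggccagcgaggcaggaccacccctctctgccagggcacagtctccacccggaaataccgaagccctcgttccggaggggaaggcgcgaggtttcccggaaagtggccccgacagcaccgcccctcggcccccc
Madcam1: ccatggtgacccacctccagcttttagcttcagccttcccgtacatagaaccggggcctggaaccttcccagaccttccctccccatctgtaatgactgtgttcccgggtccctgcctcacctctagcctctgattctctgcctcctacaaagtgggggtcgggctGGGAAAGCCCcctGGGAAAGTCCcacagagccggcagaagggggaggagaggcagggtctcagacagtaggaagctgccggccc
The match in Icam1 lies at -153 to -145 from the start site, and those in Madcam1 at -84 to -75 and -71 to -62. Searched on both strands, GGAAATTCC occurred in 0.286% of 32851 RefSeq promoter windows of the same length and the other motif in 1.63%. The motifs were written with these promoters in view, and a match is a description of the letters only. RefSeq windows were matched for 6 of the 10 genes, and among Kdr, Flt1, Tek and Eng neither motif was found.

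Each adhesion gene was also set against Pecam1 of the same library. Leukocytes also carry Pecam1, and it rose with the leukocyte level (r = 0.88, described below), so the ratio is not adhesion RNA per endothelial cell. One of 5 alternatives used the mean of the 7 vascular genes in place of Pecam1. Over these 5 the differences given below ran from -0.48 to -0.40 for Icam1, -0.35 to 0.048 for Vcam1 and -1.49 to -0.50 for Madcam1. The log2 ratio of Icam1 to Pecam1 averaged -0.28 ± 0.49 in anti-CD3 and 0.20 ± 0.55 in IgG (SD, n = 6 each), a difference of -0.48 ± 0.30 (SE, exact permutation test, two-sided, p = 0.130, adjusted over the 3 ratios 0.195). That of Vcam1 to Pecam1 averaged -0.23 ± 0.54 in anti-CD3 and 0.12 ± 0.71 in IgG, a difference of -0.35 ± 0.36 (exact permutation p = 0.372, adjusted 0.372). For Madcam1 the ratio averaged -7.53 ± 1.34 in anti-CD3 and -6.13 ± 1.45 in IgG, a difference of -1.41 ± 0.81 (exact permutation p = 0.115, adjusted 0.195). The Madcam1 difference was -0.50 when 5 counts in place of 0.5 were added, and -1.84 to -1.01 with a library left out. None of the 3 passed the test, and the smallest p the design allows is 0.00216. The Icam1 ratio was below the IgG mean in 5 of 6 anti-CD3 libraries. The highest Vcam1 ratio, 2.43 on the linear scale, belonged to IgG 6, in which Vcam1 was thus high also relative to Pecam1, and without IgG 5 and IgG 6 the difference in this ratio was 0.048.

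**Figure D3:**
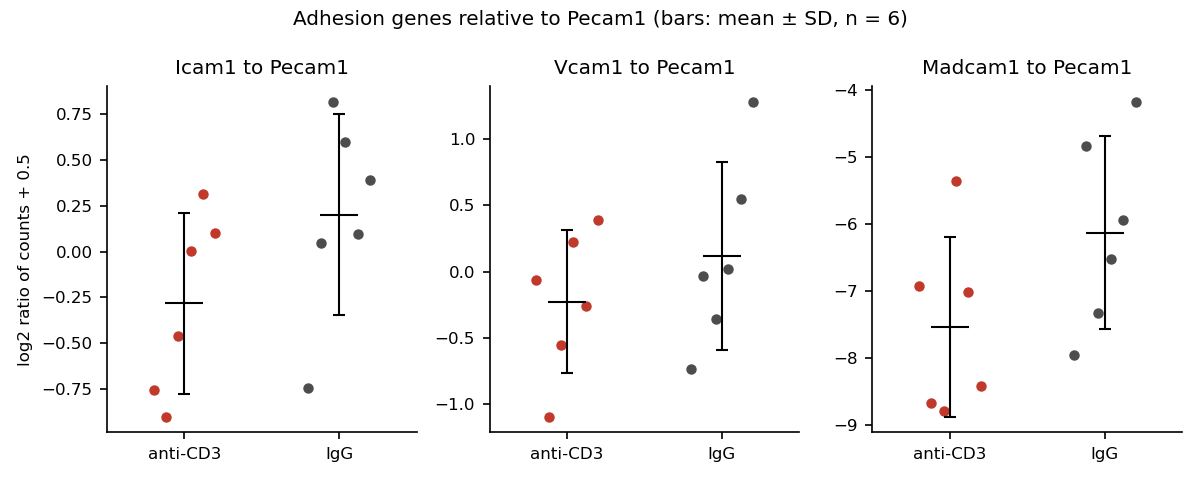
Log2 ratio of counts (plus 0.5) of Icam1, Vcam1 and Madcam1 to Pecam1 in each library, anti-CD3 (red, left) and IgG (grey, right), with mean ± SD over 6 libraries. The groups overlap in all 3 panels, with mean differences of -0.48, -0.35 and -1.41.

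Most of the 10 genes varied together from library to library. On the scale of log2(normalized count + 1), Cdh5 correlated over the 12 libraries with Flt1 (Pearson r = 0.92, permutation p = 5e-05; Spearman rho = 0.90, p = 0.00023) and with Pecam1 (r = 0.91, p = 7e-05; rho = 0.95, p = 1e-05, the smallest the permutations can give). After adjustment over 9 relations, 7 of the other genes correlated with Cdh5 by Pearson's r. The share of all genes that correlate with Cdh5 was not computed, so this count cannot be called particular to the group. Without IgG 3 and IgG 6, the libraries farthest from the median of Cdh5, r was 0.88 for Flt1 and 0.85 for Pecam1. Eng, Icam1 and Madcam1 did not pass without them, with r of 0.59, 0.56 and 0.63 (permutation p = 0.0754, 0.0956 and 0.0517), against 0.73, 0.62 and 0.76 over all libraries. Within anti-CD3, Eng correlated with Cdh5 at r = 0.91 (exact permutation p = 0.0139, n = 6), with rho = 0.77 (exact permutation p = 0.103). Within IgG the r of Eng was 0.81 (exact permutation p = 0.0611, n = 6). Icam1 had r = 0.74 in anti-CD3 and 0.73 in IgG (exact permutation p = 0.103 and 0.0917). For Madcam1 r was 0.65 in anti-CD3 and 0.96 in IgG (exact permutation p = 0.146 and 0.00556). Kdr, with r = 0.48 (permutation p = 0.113), and Tek, with r = 0.24 (permutation p = 0.452), did not pass. Within groups, Kdr correlated with Cdh5 at r = 0.72 in anti-CD3 (exact permutation p = 0.107, n = 6) and at r = 0.85 in IgG (exact permutation p = 0.0306, n = 6). Anti-CD3 3 was the lowest anti-CD3 library for 8 of the 10 genes, and IgG 3 the lowest IgG library for 8. The share of all rows lowest in these libraries was not computed. Of the 10 genes, 9 were highest in IgG 6, as were 24.7% of all rows of the deposited table.

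Most of the 10 genes also moved with the leukocyte level. Over the 12 libraries, 8 of the 10 correlated with it after adjustment over 10 relations. The share of all genes that correlate with it was not computed, so the count cannot be called particular to these genes. Vcam1 had r = 0.93 (permutation p = 4e-05, adjusted 0.0002; rho = 0.95, p = 1e-05) and Plvap r = 0.93 (permutation p = 4e-05, adjusted 0.0002; rho = 0.87, p = 0.00046). Without IgG 6 and anti-CD3 3, the libraries farthest from the median leukocyte level, these were 0.85 (permutation p = 0.00327) and 0.83 (permutation p = 0.00317). Pecam1 had r = 0.88 (permutation p = 0.00019; rho = 0.90, p = 0.00031), or 0.78 without these libraries, and Cdh5 had r = 0.80 (permutation p = 0.00217; rho = 0.80, p = 0.00231), or 0.65. Within the groups, Pecam1, Plvap and Vcam1 had r between 0.83 and 0.95 in each (exact permutation p from 0.0111 to 0.0486, n = 6). By rank, Plvap did not pass in either group, with rho of 0.83 in anti-CD3 and 0.77 in IgG (exact permutation p = 0.0583 and 0.103). Pecam1 by rank passed in IgG (rho = 0.94, exact permutation p = 0.0167) but not in anti-CD3 (rho = 0.83, p = 0.0583). Vcam1 passed by rank in both (exact permutation p = 0.0333 in anti-CD3 and 0.0167 in IgG).

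Eng, Madcam1, Flt1 and Icam1 passed over all libraries but not without those. Their rho was 0.74, 0.76, 0.62 and 0.66, with permutation p of 0.00722, 0.0051, 0.0367 and 0.0234. Their r of 0.80, 0.79, 0.76 and 0.75 came to 0.62, 0.53, 0.52 and 0.37 without them, with permutation p of 0.0599, 0.113, 0.124 and 0.291. Within anti-CD3 the r of these genes was 0.66, 0.72, 0.67 and 0.91 (exact permutation p = 0.154, 0.115, 0.169 and 0.0167, n = 6). Within IgG it was 0.87, 0.82, 0.86 and 0.59 (exact permutation p = 0.0194, 0.0431, 0.0292 and 0.174, n = 6). Kdr did not pass (r = 0.55, permutation p = 0.0645; rho = 0.52, p = 0.0895), with r = 0.23 in anti-CD3 and 0.94 in IgG. Tek showed r = 0.00 (permutation p = 0.999; rho = -0.05, p = 0.886). With the acinar share of counts, and with the mean level of the endocrine genes, 0 of the 10 correlated after adjustment. The strongest r with the acinar share were -0.73 for Vcam1 and -0.68 for Madcam1 (permutation p = 0.0148 and 0.0174, adjusted 0.0759 each). Without IgG 5 and IgG 6 these were -0.09 and -0.13 (permutation p = 0.789 and 0.718). Within IgG the r of Vcam1 was -0.92 (exact permutation p = 0.0167), and within anti-CD3 0.07 (exact permutation p = 0.919). In all, 39 relations were computed, in 4 families.

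**Figure D4:**
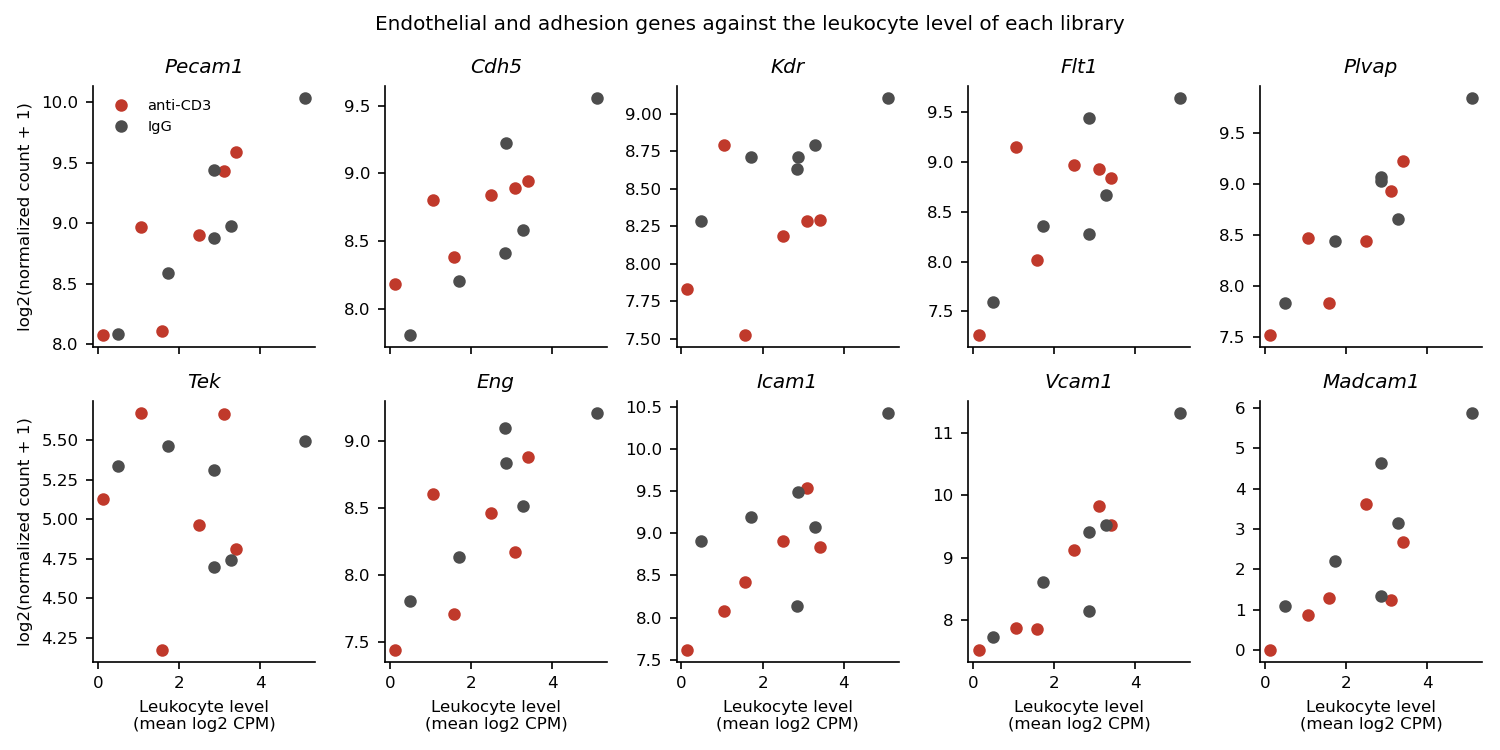
Log2(normalized count + 1) of the 10 genes (vertical axes) against the leukocyte level of the library, the mean log2 CPM of 14 leukocyte genes (horizontal axis), for anti-CD3 (red) and IgG (grey). Vcam1 and Plvap rise with the leukocyte level over the 12 libraries (r = 0.93 each), and Tek does not (r = 0.00).

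The leukocyte genes themselves did not pass the test either. All 14 had negative fold changes, with a median log2 fold change of -1.21, and -0.22 without IgG 6. Their summed normalized count was 466.1 at the lowest, 1452 at the median and 3409 at the highest in anti-CD3, against 479, 2827 and 13363 in IgG; none of them was at 0 in all libraries, while Cd79b and Ms4a1, both of B cells, were at 0 in at least 1 anti-CD3 library. Ptprc, the pan-leukocyte CD45, averaged 275 ± 217 in anti-CD3 and 692 ± 846 in IgG (SD, n = 6 each). Cd3e, the epsilon chain of CD3, averaged 25.2 ± 19.9 in anti-CD3 and 68.8 ± 44.7 in IgG (edgeR adjusted p = 0.182). With the leukocyte level as a covariate, the log2 fold change of Vcam1 was 0.02 ± 0.22 (SE). That of Kdr was -0.41 ± 0.19 and that of Icam1 -0.42 ± 0.24 (edgeR adjusted p = 0.229 and 0.346). Plvap had -0.07 ± 0.16, Eng -0.14 ± 0.20 and Tek -0.04 ± 0.30 in the same fit. Pecam1 had 0.18 ± 0.18, Cdh5 0.25 ± 0.17 and Flt1 0.20 ± 0.27. The part of the leukocyte content in the differences of the adhesion genes was not tested further. Platelet RNA, another source of Pecam1, was scarce, with 1 of 6 platelet genes above the filter.

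Pericytes and fibroblasts, which surround the endothelium, were followed by 13 genes. Of these, 12 had negative fold changes, with a median log2 fold change of -0.97, and -0.68 without IgG 6. None passed edgeR; DESeq2 called 2 of them, among them Col3a1, a fibrillar collagen of stroma. Col3a1 averaged 171 ± 105 normalized counts in anti-CD3 and 436 ± 188 in IgG, with a log2 fold change of -1.37 ± 0.44 (edgeR adjusted p = 0.146). Pdgfrb, the PDGF receptor of pericytes, averaged 48.0 ± 14.96 normalized counts in anti-CD3 and 93.9 ± 50.8 in IgG.

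No gene of the wider endothelial list passed edgeR or DESeq2. Of the 25 of 28 that were tested, 20 had negative and 5 positive fold changes, where 55.2% of all genes were negative. The median log2 fold change was -0.51, and -0.14 without IgG 6. The highest expressed were S1pr1, the sphingosine-1-phosphate receptor of endothelium and lymphocytes, with a log2 fold change of -0.53 ± 0.47, Cd93, a lectin-like receptor, with -0.69 ± 0.30, and Egfl7, a secreted endothelial factor, with 0.17 ± 0.31. Without IgG 6 these were -0.04, -0.42 and 0.32. The smallest p of the list belonged to Ptprb, the phosphatase VE-PTP that binds Tek and VE-cadherin, which is named after its value was seen. Ptprb averaged 57.1 ± 16.4 normalized counts in anti-CD3 and 95.7 ± 21.9 in IgG, with a log2 fold change of -0.74 ± 0.22 (edgeR adjusted p = 0.122). Of the 6 caveolar genes, 4 were negative and 2 positive. Cavin1, a coat protein of caveolae, averaged 193 ± 31.4 in anti-CD3 and 279 ± 62.0 in IgG, a log2 fold change of -0.53 ± 0.16, and Cav1, the structural protein of caveolae, had -0.62 ± 0.34. Cavin2, another coat protein, went the other way, with 134 ± 21.9 in anti-CD3 and 77.2 ± 40.0 in IgG (log2 fold change 0.81 ± 0.29); adjusted p for these 3 was 0.135, 0.344 and 0.170 by edgeR. Of 5 tested lymphatic endothelial genes 4 were negative, with a median log2 fold change of -0.31, and -0.02 without IgG 6.

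Among the genes of VEGF signalling, the ligand had the smallest p. Vegfa, whose product is the ligand of VEGFR1 and VEGFR2, had 1788 to 2742 normalized counts in anti-CD3, with a median of 2278, against 1225 to 1795 in IgG, with a median of 1395. The lowest anti-CD3 library lay just under the highest IgG library, so the groups overlapped there, and all 6 anti-CD3 libraries were above the IgG mean. Its log2 fold change of 0.65 ± 0.14 did not pass edgeR (unadjusted p = 0.00045, adjusted p = 0.0659), but passed DESeq2 (adjusted p = 0.00273) and the authors' deposited table (adjusted p = 0.00196). Over the alternatives and left-out libraries the log2 fold change of Vegfa ranged from 0.58 to 0.72, and the adjusted p from 0.00273 to 0.218. The receptors had negative values with all libraries, -0.51 ± 0.19 for Kdr and -0.17 ± 0.37 for Flt1. Without IgG 6 Kdr had -0.43 ± 0.19 and Flt1 0.06 ± 0.37. Nrp1, a co-receptor of VEGF-A, had 0.39 ± 0.18, and Notch1, the receptor that restrains sprouting, -0.25 ± 0.26, or 0.04 without IgG 6. Of the 16 tested VEGF, angiopoietin and Notch genes 9 were higher and 7 lower, with a median log2 fold change of 0.08, and 0.02 without IgG 6. In the BMP pathway, of which Eng is a part, 6 of 14 were higher and 8 lower, with a median of -0.24, and -0.08 without IgG 6. Its highest expressed genes were Id2, a target of BMP signalling, at 0.19 ± 0.23, Smad1 at 0.01 ± 0.15 and Smad5 at -0.20 ± 0.13, the last 2 being transducers of the BMP signal. Without IgG 6 Id2 had 0.46 and Smad1 -0.07. Besides Vegfa by DESeq2, no gene of these lists passed edgeR or DESeq2.

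**Figure D5:**
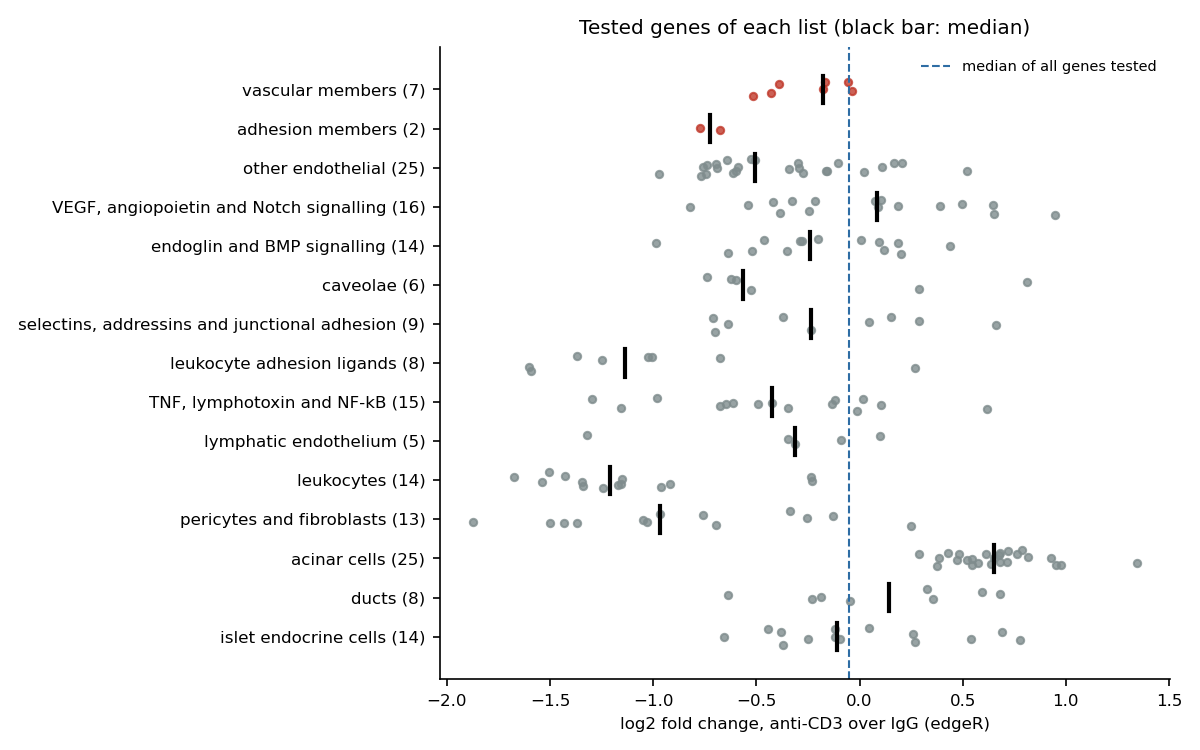
Fitted log2 fold change, anti-CD3 over IgG (horizontal axis, edgeR), of every tested gene of each list, with the number of tested genes in parentheses, the list's median as a black bar and the median of all genes tested as a dashed line. Vascular (median -0.18) and adhesion genes (-0.72, over the 2 tested) are in red, and leukocyte genes have a median of -1.21 and acinar genes of 0.65. Without IgG 6, not drawn here, these medians were 0.03, -0.15, -0.22 and 0.45.

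Of the genes that work with the adhesion molecules, none passed edgeR or DESeq2. Among selectins, addressins and junctional adhesion genes, 4 of the 9 tested were higher and 5 lower, with a median log2 fold change of -0.24, and 0.19 without IgG 6. Its highest expressed genes were F11r, the junctional adhesion molecule A that epithelium also makes, at 0.29 ± 0.19 (0.19 without IgG 6), Chst2, a sulfotransferase that modifies L-selectin ligands, at 0.66 ± 0.20, and Podxl, a sialomucin of endothelium, at -0.37 ± 0.21. The endothelial selectins, which are named in addition, gave 202 ± 80.1 normalized counts in anti-CD3 and 312 ± 162 in IgG for Selp, and 130 ± 71.5 in anti-CD3 and 150.5 ± 139 in IgG for Sele. Without IgG 6 their log2 fold changes were -0.34 and 0.36, against -0.64 and -0.24 with all libraries. The leukocyte ligands had a median log2 fold change of -1.14, with 7 of 8 lower, and of -0.35 without IgG 6. Itga4, the alpha chain of VLA-4 and alpha4beta7, had -0.68 ± 0.49. Selplg, the P-selectin ligand, had -1.01 ± 0.63, and Itgb1, the widely expressed beta chain of VLA-4, 0.27 ± 0.13. Without IgG 6 Itga4 had -0.19 and Selplg -0.29. In the TNF, lymphotoxin and NF-kB list 12 of 15 were lower, with a median of -0.42, and 0.01 without IgG 6. Rela, the p65 subunit of NF-kB, had 0.62 ± 0.30, Il1r1, the interleukin-1 receptor, -0.01 ± 0.22, and Nfkbia, the inhibitor of NF-kB, -0.13 ± 0.27. Without IgG 6 Il1r1 had 0.01 and Nfkbia 0.15.

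Several genes of high endothelial venules, the vessels through which lymphocytes enter lymph nodes, had their highest normalized counts in IgG 6. Glycam1, a mucin of these venules that binds L-selectin, is named after its values were seen and did not pass the filter. It had 884 normalized counts in IgG 6, 84.8 in anti-CD3 4, 47.6 in IgG 2, 36.1 in anti-CD3 1 and 12.5 in IgG 5, and at most 4.04 in the other libraries. The same 5 libraries were the highest for Madcam1, with 58.0 in IgG 6, 11.2 in anti-CD3 4, 23.8 in IgG 2, 5.41 in anti-CD3 1 and 7.80 in IgG 5. Of 2424 raw Glycam1 counts, 2228 came from IgG 6. Chst4, the sulfotransferase of these venules, had no count in any anti-CD3 library, and 42 raw counts in IgG 6, 7 in IgG 1 and 4 in IgG 2. Ackr1, a chemokine-binding receptor of venules, had 256 normalized counts in IgG 6 and at most 83.0 in anti-CD3 libraries. Chst2, the sulfotransferase for L-selectin ligands described above, went the other way, with 596 ± 109 normalized counts in anti-CD3 and 377 ± 116 in IgG. Ccl21a, a chemokine of high endothelial venules with near-identical gene copies, was at 0 in all libraries. Chst4, Ackr1 and Ccl21a are also named outside the rule for naming genes that is given below. What tissue the transcripts of this paragraph came from was not tested.

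The protein-coding genes outside the lists most like the mean of the 7 vascular genes, by Spearman's rho over the 12 libraries, were Rgs16 (0.94), Col16a1, Cxcl12 and Tcf4 (0.92 each), Dkk3, Hfe and Nrg1 (0.92 each) and Xlr4b (0.91). None of the 8 passed edgeR. The median rho with that mean was 0.76 for the wider endothelial list, 0.63 for leukocyte genes and 0.56 for pericyte and fibroblast genes, against -0.14 for endocrine genes, -0.36 for acinar genes and -0.06 for all genes. These are descriptions over 12 libraries that share the same scaling.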

How the data were processed

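RNA of 12 islet libraries was measured by paired-end sequencing after poly(A) selection, per the labels' protocols. Trimmomatic 0.36, STAR 2.5.2b, featureCounts of Subread 1.5.2, DESeq2 and the build GRCm38 (mm10) are named in the submitters' processing notes; the sources used here do not give the annotation, strand setting or handling of multimapping reads. The authors deposited whole-number counts for 49315 genes, and a comparison table with a normalized signal, log2 fold changes and p-values. Its signal equals the deposited counts divided by 1 factor per library. The adjusted p-value in the authors' deposited table is NA for 2935 rows, left as NA.

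Groups came from the sample labels. Counts were fitted in R 4.3.3 with edgeR 4.0.16 (quasi-likelihood, robust, TMM, filterByExpr with minimum count 10 and total 15, Benjamini-Hochberg adjusted p of 0.05, two-sided), over all genes. DESeq2 1.42.0, limma 3.58.1 (voom), other scalings and filters, the replicate number as a block, covariates for acinar share and leukocyte level, a transcript length offset, leaving out IgG 5 with IgG 6, and leaving out each library were alternatives. The procedure was tested on simulated data. Correlations used 100000 permutations. Whether replicate numbers pair libraries was checked, and correlations of same-numbered libraries' deviations ran from -0.29 to 0.55. Same-numbered libraries were not treated as pairs in the main fit, although this check cannot exclude pairing.

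The 10 genes and all lists were chosen with earlier results of these data known. Genes named by rule were these 10, any list gene past the test, the 3 highest expressed tested genes of each list, and 8 genes most like the vascular mean. Ptprb, Selp, Sele, Glycam1, Chst4, Ackr1, Ccl21a, Cd79b and Ms4a1 were named in addition, outside this rule. Also given as levels were Ptprc, Cd3e, Pdgfrb, Col3a1, Cpa1 and Ins2.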

Additional observations from a re-analysis of the deposited data

Results flagged for a closer look

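In a check for a library that lies far from the others of its group, 1 of 26 groups of values stood out, where chance flags about 1 in 20. The 26 hold the values of the 10 genes in each group together with other values. Vcam1 had 2550 normalized counts in IgG 6, and the gap to the next IgG library was 0.777 of the range of the group. IgG 6 also had the lowest acinar share of counts, 28.5%, and the highest leukocyte level, 5.10. Without IgG 6 the log2 fold change of Vcam1 was 0.03 ± 0.50.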

How the results depend on the processing

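None of the 9 tested genes was called by any alternative or with any single library left out. Madcam1 entered only the fit with no filter on low counts, where it was not called, and DESeq2, which gave it no adjusted p. The number of genes called over the whole table was 10 with all libraries and edgeR, 167 with no filter on low counts, 6 with the acinar share as a covariate, 256 with the leukocyte level as a covariate, 4 with a transcript length offset, 1 without IgG 5 and IgG 6, 135 by limma-voom with quality weights and 455 by DESeq2. Leaving out each library in turn gave 0 to 203, the highest without anti-CD3 2, and only without IgG 2 was it within 1.5 times of 10. In the check of replicate numbers, 2 of 6 libraries correlated best with their own number, those of numbers 3 and 6 (0.55 and 0.54). That check cannot exclude pairing. With the replicate block 0 genes were called and the log2 fold change of Cdh5 was 0.039. In that edgeR fit Kdr, Icam1 and Plvap had unadjusted p of 0.00913, 0.0290 and 0.0346. Their adjusted p were 0.145, 0.200 and 0.210. The others of the 9 genes had unadjusted p from 0.0540 for Eng to 0.843 for Cdh5.

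Some fold changes of genes that passed no test changed sign. With the acinar share as a covariate the log2 fold change was 0.20 for Pecam1, 0.26 for Cdh5, 0.17 for Flt1, 0.020 for Tek, 0.33 for Vcam1, 0.10 for Il1r1, 0.20 for Nfkbia, 0.17 for Notch1, -0.10 for Smad1, 0.13 for Itga4, 0.058 for Selplg and 0.19 for S1pr1. With the leukocyte level as a covariate the log2 fold change was 0.18 for Pecam1, 0.25 for Cdh5, 0.20 for Flt1, 0.025 for Vcam1, 0.12 for Nfkbia, 0.021 for Notch1, -0.080 for Smad1, 0.015 for Itga4 and 0.16 for S1pr1. Without IgG 5 and IgG 6 the log2 fold change was 0.12 for Pecam1, 0.18 for Cdh5, 0.081 for Flt1, 0.27 for Vcam1, 0.13 for Il1r1, 0.14 for Nfkbia, 0.17 for Notch1, -0.089 for Smad1, 0.089 for Itga4 and 0.099 for S1pr1. With limma-voom the log2 fold change was 0.12 for Cdh5, 0.025 for Nfkbia and -0.051 for Smad1. With a transcript length offset the log2 fold change was 0.024 for Tek, 0.10 for Il1r1 and -0.085 for Ins2. With RLE factors the log2 fold change was -0.00263 for Smad1. The difference in the log2 ratio of Vcam1 to Pecam1, anti-CD3 minus IgG, was 0.048 without IgG 5 and IgG 6. Leaving out each library in turn, log2 fold changes ran from -0.34 to 0.091 for Pecam1, -0.19 to 0.17 for Cdh5, -0.32 to 0.061 for Flt1, -0.18 to 0.10 for Tek, -1.05 to 0.033 for Vcam1, -0.16 to 0.11 for Il1r1, -0.25 to 0.15 for Nfkbia, -0.35 to 0.042 for Notch1, -0.074 to 0.090 for Smad1 and -0.016 to 0.32 for Egfl7. The cause of these changes was not tested.

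Depth limited Madcam1 most, with 208 raw counts in 12 libraries, and Tek, with 480. Molecular identifiers are not named in the sources used here, so reads need not be independent molecules. Leaving out IgG 6 turned the sign of Pecam1, Cdh5, Flt1, Tek and Vcam1, and left 5 IgG libraries.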
